A study of Mus musculus with 3 samples.

Results

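The 10 genes described here encode small proteoglycans and proteins that crosslink or build the extracellular matrix: Dcn, Bgn, Lum, Fmod and Ogn, the lysyl oxidases Lox and Loxl1, and Postn, Fbn1 and Eln. They are a named set chosen with earlier results of these data known, and were 10 of the 13184 genes above background on at least 1 array. RNA came from whole mouse embryos of mixed background on 1-colour Agilent arrays, with 1 array in each of 3 groups and 3 embryos pooled for each array. The groups were the triple null MafF-/-:MafG-/-:MafK-/- at E10.5, in days of embryonic development, and MafF-/-:MafG+/+:MafK-/-, called MafG-intact here, at E10.5 and at E9.5. Every group therefore lacked MafF and MafK, the E10.5 groups differed in MafG, and no group was wild type. Each group is a single array, so no difference could be checked against replicates and no p-value is given. The errors given are the scanner software's own estimate for a spot, which covers the measurement and not the spread between embryos.

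Small leucine-rich proteoglycans are secreted proteins that bind collagen fibrils and set their width and spacing. Lysyl oxidases oxidise lysine side chains of collagen and elastin, the step that starts crosslinking. Fibrillin microfibrils form the scaffold on which elastin is laid down, and periostin is a matricellular protein of mesenchyme and of the developing heart valves. The small Maf proteins MafF, MafG and MafK bind DNA as dimers, among them dimers with CNC factors such as Nrf2, at elements that hold TGACNNNGC, and TGCTGA is a stretch that Maf proteins recognise.

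Promoters of the 250 bases before the annotated start are shown because the missing proteins bind DNA at such letters. RefSeq entries of build GRCm38.p6 were found for 5 of the 10 genes (Bgn, Fbn1, Fmod, Ogn and Postn), with 6 starts in all. Capitals mark a match on either strand to TGACNNNGC or TGCTGA. The windows are chr13:49607765-49608014 for Ogn, chr1:134037004-134037253 for Fmod, chr3:54359017-54359266 for the first start of Postn and chrX:73483351-73483600 for Bgn, all on the plus strand.
Ogn: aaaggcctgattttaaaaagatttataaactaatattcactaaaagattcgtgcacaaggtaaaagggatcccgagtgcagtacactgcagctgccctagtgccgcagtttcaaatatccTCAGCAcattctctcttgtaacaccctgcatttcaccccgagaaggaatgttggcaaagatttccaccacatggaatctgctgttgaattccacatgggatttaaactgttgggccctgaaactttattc
Fmod: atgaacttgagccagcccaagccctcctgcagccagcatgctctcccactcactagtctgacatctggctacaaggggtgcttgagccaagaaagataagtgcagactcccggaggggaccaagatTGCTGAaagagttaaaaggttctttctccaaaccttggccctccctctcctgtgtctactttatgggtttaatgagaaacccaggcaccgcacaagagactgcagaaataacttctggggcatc
Postn: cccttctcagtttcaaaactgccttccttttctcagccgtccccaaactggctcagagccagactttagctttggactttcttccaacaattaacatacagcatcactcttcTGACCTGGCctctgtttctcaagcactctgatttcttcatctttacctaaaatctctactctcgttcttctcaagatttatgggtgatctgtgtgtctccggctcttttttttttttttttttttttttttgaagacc
Bgn: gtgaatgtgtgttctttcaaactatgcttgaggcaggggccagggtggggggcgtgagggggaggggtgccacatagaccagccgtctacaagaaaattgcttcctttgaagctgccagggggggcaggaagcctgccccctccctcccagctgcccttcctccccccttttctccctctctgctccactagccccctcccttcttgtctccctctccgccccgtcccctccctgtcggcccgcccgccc
The Ogn window held TGCTGA once, on the minus strand, 130 to 125 bases before the start. The Fmod window held it on the plus strand, 124 to 119 bases before the start, and the Postn window held TGACCTGGC 138 to 130 bases before its first start. The Bgn and Fbn1 windows and that of the second Postn start held neither. The AP-1 type letters TGANTCA were searched too and matched in none of the 6. Over 32851 promoters of the same length, 16.1% held TGCTGA, 10.2% held TGACNNNGC and 6.75% held TGANTCA, and no matches overlapped here. A match describes the letters and is not a site.

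Levels are given as a percent of the signal at the array's 75th percentile, with the scanner's error, and levels of different probes are not compared. All 10 genes, read by 11 probes, were above background on all 3 arrays. Ogn and Dcn, followed by Lox, stood farthest apart between the E10.5 arrays, and in each the MafG-intact E10.5 array was the high one. In RNA of whole embryos, fewer cells of a type and less RNA per cell cannot be told apart.

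Among the proteoglycans, Dcn encodes decorin, which binds collagen fibrils and limits their width. Its level was 66.2% ± 6.62 in triple null embryos, 200.1% ± 20.01 in MafG-intact E10.5 embryos and 85.1% ± 8.51 in MafG-intact E9.5 embryos. The MafG-intact E10.5 array was the high one and the triple null array the lowest. Ogn encodes osteoglycin, also called mimecan. Its level was 2.39% ± 0.288 in triple null embryos, 14.6% ± 1.47 in MafG-intact E10.5 embryos and 1.56% ± 0.228 in MafG-intact E9.5 embryos. It was dim on the triple null and E9.5 arrays. Lum encodes lumican, which spaces collagen fibrils in the cornea. It had 306% ± 30.6 in triple null embryos, 539% ± 53.9 in MafG-intact E10.5 embryos and 457% ± 45.7 in MafG-intact E9.5 embryos. Triple null embryos were lowest. Fmod encodes fibromodulin, a collagen-binding proteoglycan of tendon. Its level was 6.40% ± 0.659 in triple null embryos, 11.4% ± 1.15 in MafG-intact E10.5 embryos and 8.005% ± 0.818 in MafG-intact E9.5 embryos. The order of its arrays was that of Lum and Dcn. Bgn encodes biglycan, the closest relative of decorin. Its level was 11.7% ± 1.18 in triple null embryos, 13.0% ± 1.31 in MafG-intact E10.5 embryos and 12.3% ± 1.25 in MafG-intact E9.5 embryos. These 3 values lay within their errors.

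Lox encodes the founding lysyl oxidase. Its level was 4.03% ± 0.447 in triple null embryos, 9.43% ± 0.960 in MafG-intact E10.5 embryos and 4.20% ± 0.466 in MafG-intact E9.5 embryos. Triple null and E9.5 embryos did not differ beyond the error. Loxl1 encodes a lysyl oxidase of elastic fibres. It had 36.8% ± 3.69 in triple null embryos, 72.3% ± 7.24 in MafG-intact E10.5 embryos and 42.8% ± 4.28 in MafG-intact E9.5 embryos. As with Lox, the MafG-intact E10.5 array stood above the other 2.

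Postn encodes periostin. Its level was 312% ± 31.2 in triple null embryos, 553% ± 55.3 in MafG-intact E10.5 embryos and 543% ± 54.3 in MafG-intact E9.5 embryos. Here the triple null array was the one apart, and the MafG-intact arrays lay within their errors. Fbn1 encodes fibrillin-1, the main microfibril protein. Its probe A_51_P467224 had 72.5% ± 7.26 in triple null embryos, 71.1% ± 7.12 in MafG-intact E10.5 embryos and 61.9% ± 6.19 in MafG-intact E9.5 embryos. Its probe A_52_P224801 had 9.97% ± 1.01, 9.497% ± 0.966 and 9.01% ± 0.922 in the same order. Eln encodes tropoelastin. It was dim on every array, with 1.19% ± 0.246 in triple null embryos, 2.27% ± 0.300 in MafG-intact E10.5 embryos and 1.41% ± 0.262 in MafG-intact E9.5 embryos.

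**Figure D1:**
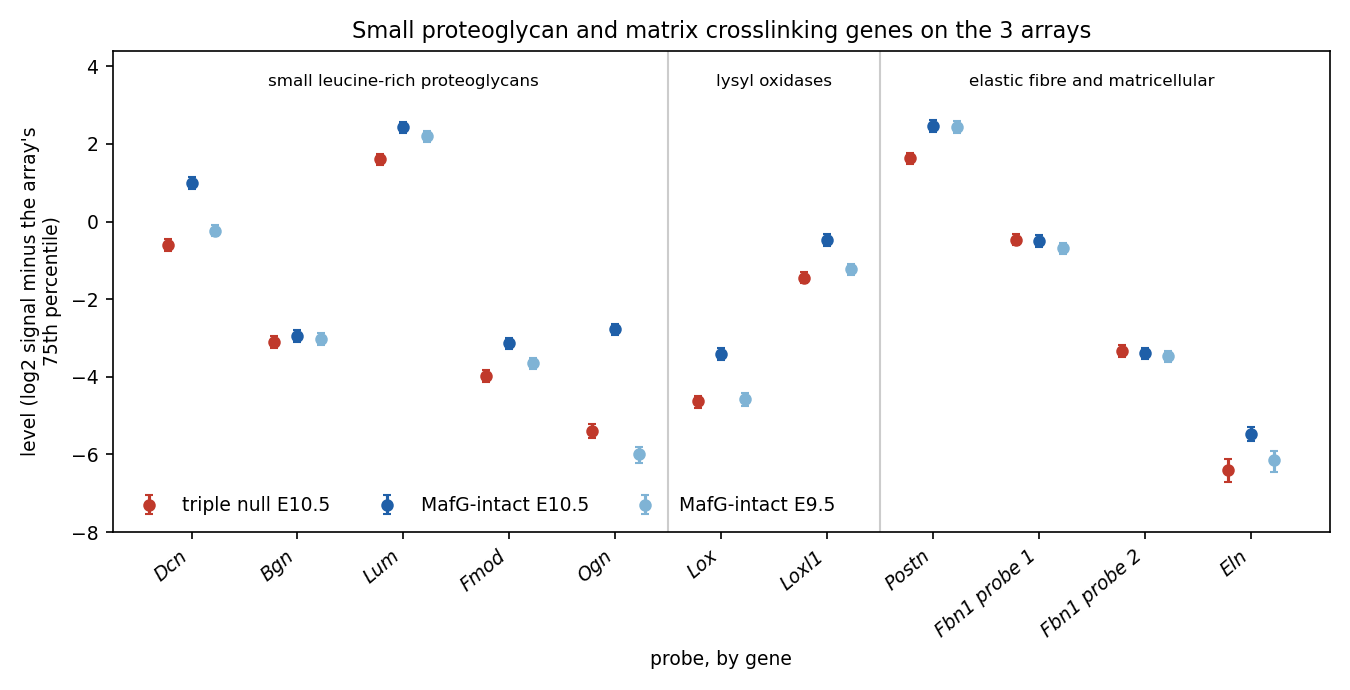
Level of each probe, as log2 signal minus the array's 75th percentile, on the triple null E10.5, MafG-intact E10.5 and, last, E9.5 MafG-intact arrays; bars are the scanner's error. Ogn is at 14.6% of the 75th percentile on the MafG-intact E10.5 array, against 2.39% on the triple null array.

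Triple null embryos were set against MafG-intact embryos of the same day, which asks what the loss of MafG on top of MafF and MafK goes with. Of the 10 genes, 9 were lower in triple null embryos, as were 41.6% of all genes, and Fbn1 was 0.05 higher on the log2 scale. With normexp background correction 8 of the 10 were lower, with Bgn at -0.003 and Eln at 0.03. The share of all genes that was lower under normexp is not given here. The differences (triple null minus MafG-intact, log2) were -2.61 ± 0.23 for Ogn (6.09-fold), -1.60 ± 0.20 for Dcn (3.02-fold) and -1.23 ± 0.22 for Lox (2.34-fold), and these 3 of 10 were at least 2-fold lower. None was 2-fold higher. For comparison, 4.47% of the 12529 genes measured on both arrays were 2-fold lower and 0.982% 2-fold higher. The share that was lower came to 10% among the dimmest of 3 equal groups of genes by level, 2.78% in the middle group and 0.622% in the brightest. Ogn and Lox belonged to the dimmest group and Dcn to the middle one. The noise between repeat spots of like level was 0.18 for the Ogn difference, 0.07 for that of Dcn and 0.16 for that of Lox, below each difference. The median difference was -0.88 over the 10 genes and 0.06 over all genes.

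Just short of 2-fold were Loxl1 at -0.97 (1.96-fold), Eln at -0.93 (1.90-fold, with an error of 0.35), Fmod at -0.83 (1.78-fold), Postn at -0.83 (1.78-fold) and Lum at -0.82 (1.76-fold). Bgn was at -0.16, inside its error of 0.21. The difference went beyond the scanner's error for 8 of the 10 genes, all but Bgn and Fbn1. The share of all genes beyond that error is not given here, so this count has no background. Ranked among all genes, 41 were lower than Ogn, 234 lower than Dcn and 407 lower than Lox.

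**Figure D2:**
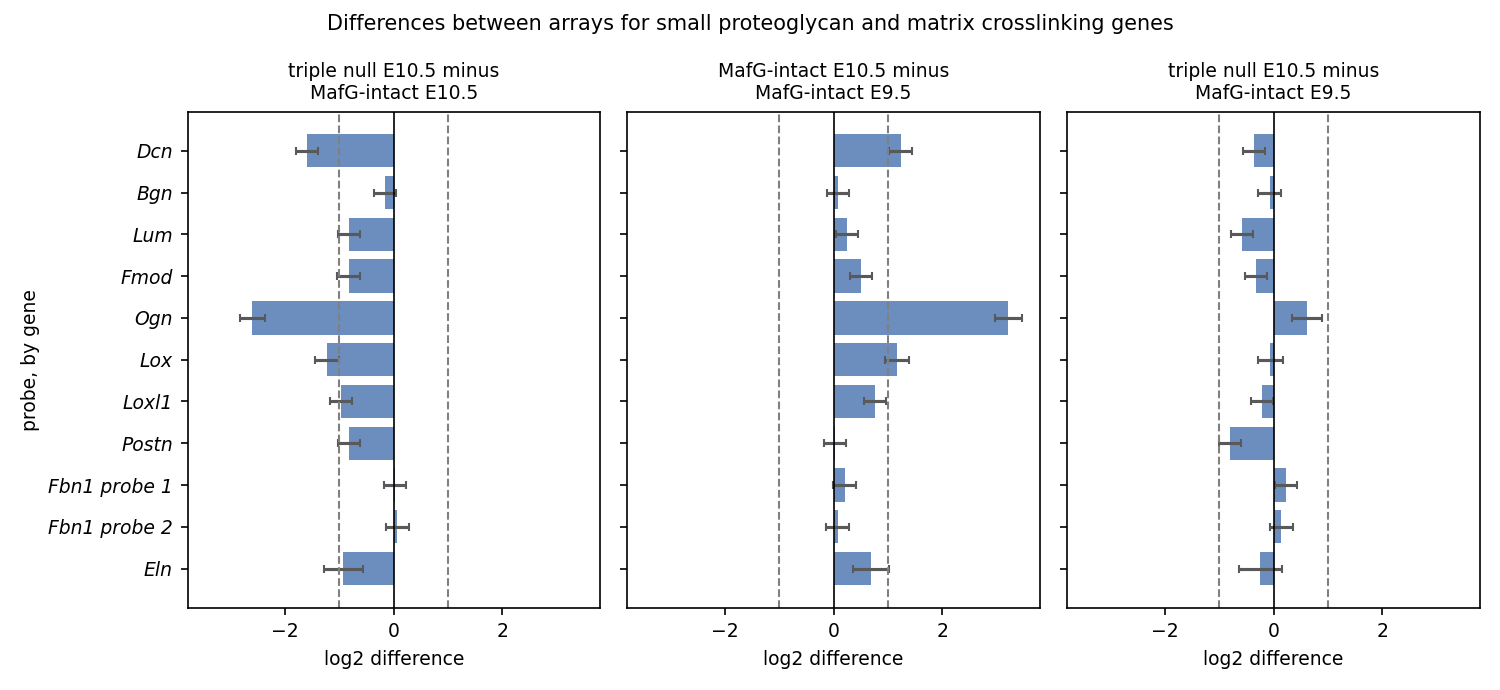
Log2 difference of each probe in the 3 comparisons, with the scanner's error as bars and dashed lines at 2-fold. Ogn, Dcn and Lox pass the line to the left in triple null minus MafG-intact E10.5, and to the right in MafG-intact E10.5 minus E9.5.

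Among the MafG-intact embryos, E10.5 was set against E9.5 to show the levels over 1 day. All 10 genes were higher at E10.5, with the smallest difference at Postn (0.03), except that Bgn (-0.08) and Eln (-0.09) were lower with normexp. Of all genes, 42.8% were higher at E10.5. Ogn was higher by 3.22 on the log2 scale (9.33-fold), Dcn by 1.23 (2.35-fold) and Lox by 1.17 (2.24-fold), and these 3 of 10 were at least 2-fold higher, where 4.12% of 12514 genes were. With normexp Ogn was at 1.55, still at least 2-fold apart, while Lox was at 0.45 and no longer was. None was 2-fold lower, against 1.07% of genes. In this comparison 7 genes were farther up than Ogn and 363 farther up than Dcn. Loxl1 was at 0.76 (1.69-fold), Eln at 0.69 (1.61-fold), Fmod at 0.51 (1.42-fold) and Lum at 0.24, while Fbn1 (0.14), Bgn (0.08) and Postn lay inside the scanner's error. The median was 0.60 over the 10 genes and -0.05 over all genes.

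Triple null embryos at E10.5 were also set against MafG-intact embryos at E9.5, a comparison that differs in both genotype and day. None of the 10 genes was 2-fold apart, and 0.783% of 12521 genes were. Postn differed most, at -0.80 (1.74-fold lower in triple null embryos, error 0.20), with 109 genes lower. Lum was at -0.58 (1.49-fold), with 210 genes lower, Dcn at -0.36, Fmod at -0.32 and Loxl1 at -0.22. Ogn, at 0.61 (1.53-fold, error 0.27, and 0.16 with normexp), and Fbn1, at 0.19, were the 2 genes higher in triple null embryos. Lox was at -0.06, Bgn at -0.07 and Eln at -0.24, all inside the scanner's error. Of the Fbn1 probes, A_51_P467224 was beyond its error (0.23 against 0.20) and A_52_P224801 was inside (0.15 against 0.21). The median was -0.23 over the 10 genes and 0.005 over all genes, of which 48.5% were lower and 51.5% higher in triple null embryos. The 3 comparisons share arrays: the MafG-intact E10.5 array stands in the first and the second, so they are not separate evidence, and the third is their sum.

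**Figure D3:**
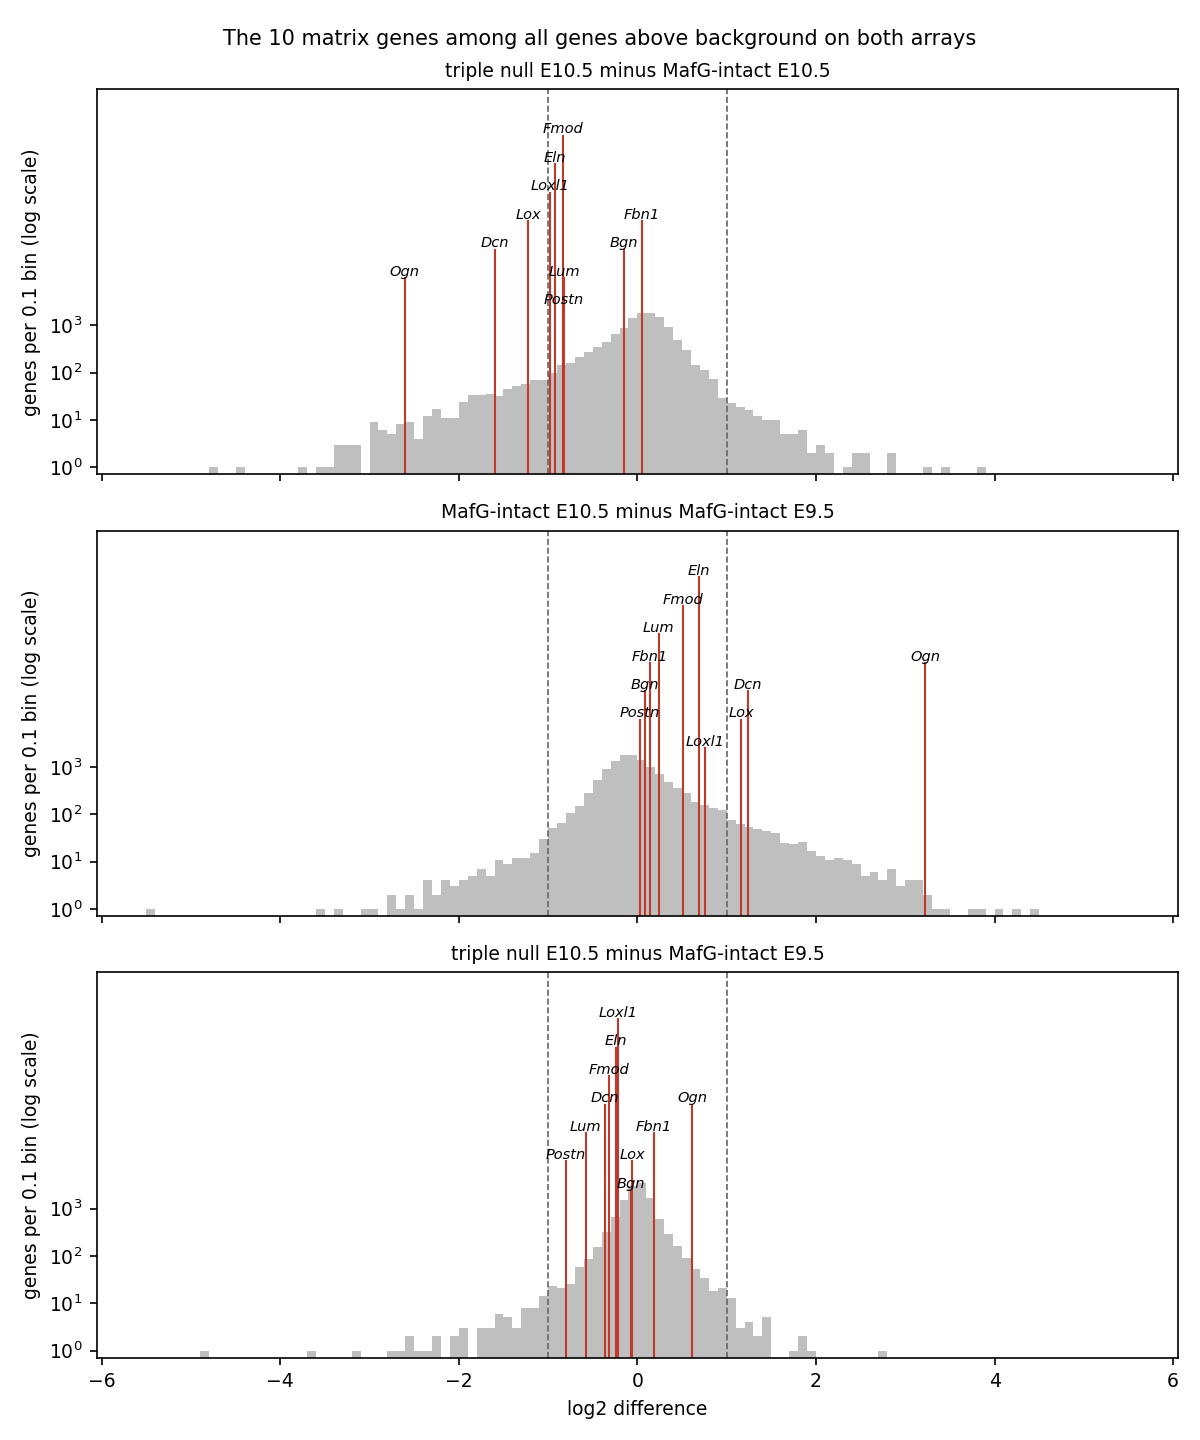
Histograms of the log2 difference over all genes above background on both arrays, with the 10 genes as red lines and dashed lines at 2-fold; the vertical axis is on a log scale. Ogn is at -2.61 in the first comparison, 3.22 in the second and 0.61 in the third.

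The normexp setting, which replaces the background correction and adds an offset of 50 to every spot, moved several of these values. On the triple null array the signals of Ogn (25.8), Lox (43.5) and Eln (12.9) were below that offset. The correction and the offset were not run apart. With normexp in place of the scanner's subtraction, Ogn was at -1.39 and Dcn stayed 2-fold apart between the E10.5 arrays, but Lox was at -0.51, Fmod at -0.43, Loxl1 at -0.88 and Eln at 0.03. Dcn, Lum and Postn moved by less than the noise between repeat spots, as the plot of the settings shows. In all 9 settings Dcn and Ogn were at least 2-fold lower in triple null embryos, and Lox was in 8. Each of these genes has 1 probe, above background on every array. The filters on dim probes and the probe choice therefore could not change their values. The value table differs from the scanner's intensities by at most 0.497%, so these settings are not separate checks.

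**Figure D4:**
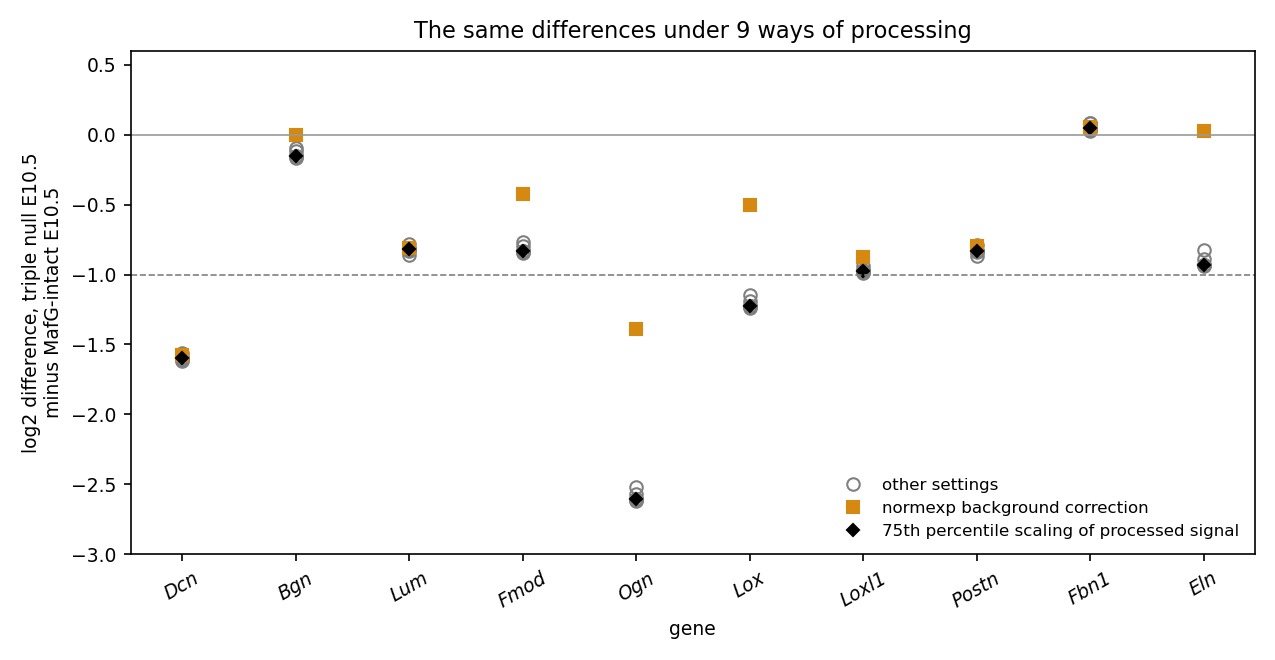
Log2 difference, triple null minus MafG-intact E10.5, of each gene under 9 ways of processing; the square is normexp background correction and the dashed line is 2-fold. Ogn lies between -2.62 and -1.39, Dcn between -1.62 and -1.56 and Lox between -1.24 and -0.51.

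Other genes of the same roles were read from lists. Between the E10.5 arrays 4.47% of all genes were 2-fold lower in triple null embryos and 0.982% 2-fold higher. Of 12 other small leucine-rich repeat genes, 5 were measured on both E10.5 arrays, and Prelp, a proteoglycan anchoring basement membrane to collagen, was 2-fold lower in triple null embryos at -1.88 (-0.37 with normexp). Optc was at -0.99 (-0.00077 with normexp), Epyc at -0.33 (0.12 with normexp), Tsku at 0.11 and Nyx at 0.58, whose probes differed (0.06 and 1.10). The median of the 5 was that of Epyc under both, and none was 2-fold higher. Aspn, Omd, Kera and Podn were below background on every array. Several of these genes sit beside one another in the annotation: Dcn, Lum, Kera and Epyc on chromosome 10, Optc, Prelp and Fmod on chromosome 1, and Ecm2, Aspn, Omd and Ogn on chromosome 13. Omd and Aspn, next to Ogn, were below background throughout. The other genes of the 10 lie on chromosomes X (Bgn), 18 (Lox), 9 (Loxl1), 3 (Postn), 2 (Fbn1) and 5 (Eln).

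Of 14 measured genes for other crosslinking and collagen processing, 1 was 2-fold lower and none higher, where 4.47% and 0.982% of all genes were. It was Loxl3, a further lysyl oxidase, at -1.04 (-0.23 with normexp). Plod1, a lysyl hydroxylase, was at 0.55, Loxl2 at 0.49, Bmp1, which cleaves procollagen and activates lysyl oxidase, at -0.59 and Pcolce, its enhancer, at -0.58. The median was 0.15. Of 15 measured elastic fibre genes, Fbln5, which helps tether elastin and Loxl1 to microfibrils, was 2-fold lower at -1.09 (-0.94 with normexp, and -0.50 with no filter on dim probes), none was 2-fold higher, and the median was -0.22. Over 12 matricellular genes the median was -0.06, with Thbs2 at -0.80 and Tgfbi at -0.73, and none was 2-fold apart. All 7 fibrillar collagen chains were below 0, as were 41.6% of all genes, with a median of -0.52, and none was 2-fold apart. Col1a1 and Col11a1 were each at -0.72. Glycosaminoglycan synthesis genes, which build the chains that proteoglycans carry, had a median of 0.05 over 15 measured, with Chst15 at -0.64 and Csgalnact1 at 0.40.

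**Figure D5:**
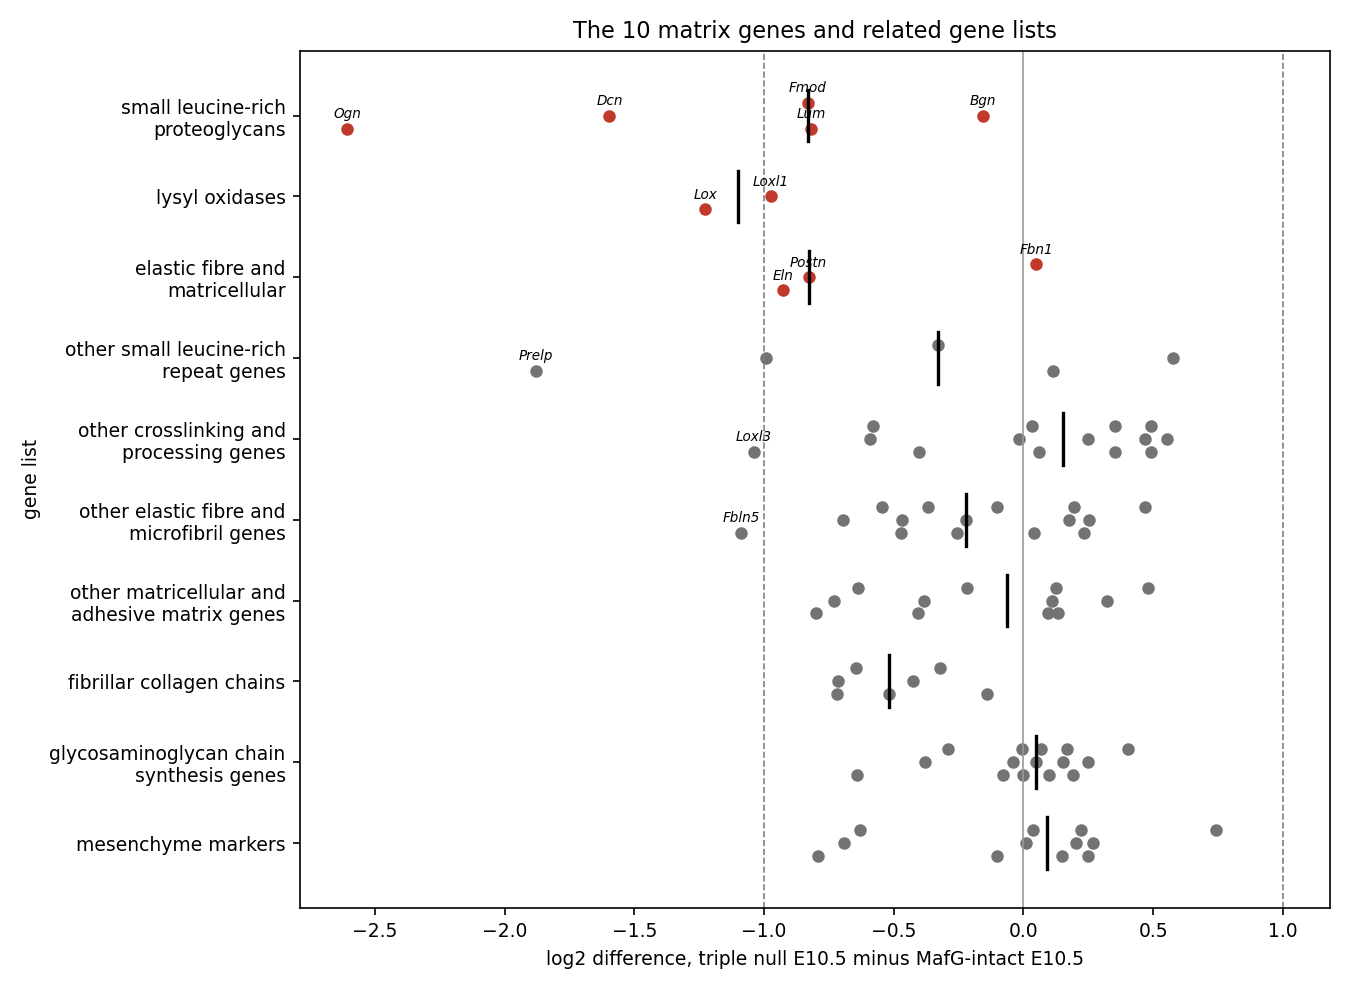
Log2 difference, triple null minus MafG-intact E10.5, of the 10 genes (red) and of related genes (grey), by list; vertical bars are list medians and dashed lines are 2-fold. The fibrillar collagens have a median of -0.52 and mesenchyme markers one of 0.09.

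In MafG-intact embryos at E10.5 against E9.5, the fibrillar collagens had a median of 0.28, the elastic fibre genes 0.04, the crosslinking genes -0.03 and the matricellular genes 0.19 (-0.08 with normexp). Fbln5 was at 1.17 (0.53 with no filter on dim probes) and Prelp at 1.13 (0.30 with normexp). Among genes above background on all 3 arrays (12264 searched), those with the 3-array pattern nearest to Dcn, by Euclidean distance between levels centred on each gene's mean, were Itga11, a collagen receptor subunit (0.0587), Nckap5 (0.0599) and Bmerb1 (0.0736). For Ogn they were Cpt1a, which brings fatty acids into mitochondria (0.101), Thsd7b (0.245) and Sncg (0.257). For Lox they were Bdnf, a neurotrophin (0.00923), Tfr2 (0.0273) and Tagln3 (0.0280). The likeness is over 3 arrays.

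Markers of cell types in the embryo were read beside these results. Of 12 mesenchyme markers none was 2-fold apart and the median was 0.09. Of them 4 were below 0 and 8 above, where 41.6% and 58.4% of all genes were. Farthest down were Twist2 (-0.79), Prrx1 (-0.69) and Pdgfrb (-0.63), and farthest up was Meox1 (0.74). The summed level of the 12, in multiples of the 75th percentile, was 42.4 in triple null embryos. It was 40.2 in E10.5 MafG-intact embryos and 43.0 in E9.5 ones, and the brightest genes count most in such a sum. All 6 neuron markers were at least 2-fold lower in triple null embryos, where 4.47% of all genes were. Dcx was at -2.53 (-1.78 with normexp), Nefm at -2.36, Stmn2 at -2.30, Nefl at -2.21, Elavl3 at -1.90 and Tubb3 at -1.86. Their median was -2.25, with summed levels of 7.85, 33.0 and 8.02 in the same order. Of 8 red cell markers 6 were at least 2-fold lower, against that 4.47%. They were Slc4a1 (-1.80), Klf1 (-1.64), Hba-a1 (-1.63), Alas2 (-1.28), Hba-x (-1.06) and Hbb-y (-1.04). The median of the 8 was -1.17, with sums of 345, 603 and 409. Tyrobp, a macrophage marker, was at -3.59 (-1.70 with normexp). The 4 macrophage markers on the array had sums of 0.0233, 0.302 and 0.0305. Cx3cr1, Ptprc and Aif1 were not above background in triple null embryos, and Cx3cr1 and Ptprc were not in E9.5 embryos either. The sums of those arrays therefore include signal below background. Medians were -0.14 for cartilage, 0.05 for endocardial cushion and valve markers, and 0.11 for endothelium. Of the cushion markers Tbx2 was at -1.001 (-0.964 at the other end of its range over the settings), Snai2 at -0.26, Nfatc1 at 0.05, Sox17 at 0.23 and Tbx20 at 0.72. The part of these markers in the differences of the matrix genes was not tested.

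The targeted gene and the sex genes check the labels. Mafg was not above background in triple null embryos, and was at least 173-fold lower than in MafG-intact E10.5 embryos. Maff and Mafk gave signal on all arrays, and since it is not known here whether their probes lie in the deleted parts, they check nothing. Of the sex genes, Xist was detected only in the MafG-intact pool of E10.5, at least 141-fold above triple null embryos, and Ddx3y, Eif2s3y, Kdm5d and Uty only in the other 2 pools. Sex therefore differs along with genotype or stage in both comparisons that use that pool, and cannot be told apart from them. Bgn, on the X chromosome, was inside its error in each. The 75th percentile signal was 1078 on the triple null array, 1420 on the E10.5 MafG-intact array and 1064 on the E9.5 one. All 3 arrays shared the same slide barcode and the same scan date. The 9 spike-in probes had a median log2 difference of 0.02 in each comparison after this scaling.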

How the data were processed

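Total RNA of 3 pooled whole embryos per group was amplified and labelled with Cy3, per the labels' protocols. The deposited intensity is background-subtracted scanner output of Agilent Feature Extraction 9.5.3.1 (protocol GE1-v5_95_Feb07, array design 014868, annotation build mm7), per the file headers. Values are linear. Here the log2 intensity minus the array's 75th percentile over non-control spots was used, spots marked as outliers were dropped and probes averaged. Of 41170 probes, 22950 had 1 gene symbol through their RefSeq accession (GRCm38.p6); that build differs from the array's. A gene needed to be well above background on at least 1 array, and was called when above background on both arrays and at least 2-fold apart. Repeat-spot noise came from 245 probes printed 10 times. Normexp (limma 3.58.1, R 4.3.3), run on median spot and background signals, used an offset of 50. Promoters came from the RefSeq table. Python 3.11.15 and pandas 2.3.3 did the rest, after a check on simulated data. Named genes are the 10, list genes at least 2-fold apart (else the 2 farthest), the nearest genes by pattern, and label checks. Other list genes were named after their values were seen. The genes and lists were chosen with earlier results of these data known. The alternatives were another background correction, other scalings, filters, probe choice, thresholds and the value table.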

Additional observations from a re-analysis of the deposited data

How the results depend on the processing

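No paired analysis was possible because each group has 1 array. With a 1.5-fold threshold 8 of the 10 genes were apart between triple null and MafG-intact E10.5 embryos (3 at 2-fold), 5 between MafG-intact E10.5 and E9.5 embryos (3 at 2-fold, 1 at 3-fold) and 2 between triple null E10.5 and MafG-intact E9.5 embryos (0 at 2-fold). Those last 2 were Postn and Ogn, and Ogn was at 0.16 with normexp. The shares of all genes at 1.5-fold and 3-fold are not given here, so the counts at those thresholds cannot be read against a background. Normexp background correction, with its offset of 50, moved the median of the 10 genes to -0.65 in the first comparison and 0.21 in the second. The other settings changed neither count by more than 1.5 times nor median beyond the repeat-spot noise. Within it stayed 228 single-gene values, among them those under the filters and probe choice, which could not change a gene with 1 probe. The 12 that moved were all under normexp, for a cause that was not tested. Under it Lox was no longer 2-fold apart, which left 2 of the 10 genes in the first and in the second comparison. Over all genes, the 2-fold counts were 683, 650 and 98 in the 3 comparisons (5.45%, 5.19% and 0.783%). Under normexp they were 267, 255 and 27 (2.13%, 2.04% and 0.216%). With no filter on dim probes they were 1242, 1227 and 517 of 16358 genes (7.59%, 7.5% and 3.16%). The Eln signal was 12.9, 32.3 and 15.0 on the triple null, E10.5 and E9.5 MafG-intact arrays, where the lowest signal called above background was 8.69, 10.8 and 8.98.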

Other observations

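Of 6 smooth muscle markers, 5 were above 0 in triple null minus MafG-intact E10.5 embryos, as were 58.4% of all genes, and 1 was 2-fold higher. That was Actg2, an enteric smooth muscle actin, at 1.17. Acta2 was at 0.77, Cnn1 at 0.54, Tagln at 0.39 and Smtn at 0.10, while Myh11, the smooth muscle myosin heavy chain, was at -1.23 (-0.15 with normexp). The median of the 6 was 0.46, and their summed level was 20.5 in triple null embryos, 13.2 in E10.5 MafG-intact embryos and 17.0 in E9.5 ones, in multiples of the 75th percentile.

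Yolk sac endoderm markers were lower in both E10.5 groups than at E9.5. In triple null embryos against MafG-intact E9.5 embryos all 5 measured were at least 2-fold lower, at a median of -2.04 (-1.51 with normexp), where 0.783% of all genes were 2-fold apart in either direction. In MafG-intact embryos at E10.5 against E9.5, 4 of the 5 were, at a median of -1.89 (-1.44 with normexp), where 1.07% of all genes were 2-fold lower. In the first of these, Spp2 was at -3.62 (-1.87 with normexp), Apoa1 at -3.17 (-1.79), Amn at -2.04 (-1.51), Ttr at -1.71 (-0.51, no longer 2-fold) and Rhox5 at -1.12.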
